A study of Bos taurus with 30 samples.

Results

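The genes described here are 7 interferon-stimulated antiviral genes in the visceral adipose tissue of heifer calves. They were chosen by Ensembl identifier: ISG15 (ENSBTAG00000014707), MX1 (ENSBTAG00000030913), MX2 (ENSBTAG00000008471), RSAD2 (ENSBTAG00000016061), OAS2 (ENSBTAG00000014628), OAS1X (ENSBTAG00000037527) and OAS1Y (ENSBTAG00000039861). They are 7 of the 24596 genes in the deposited table, and all 7 were among the 12738 genes whose value exceeded 1 in 15 or more calves. Bulk RNA from omental fat of 30 Angus × Holstein-Friesian heifers was sequenced with 1 library per calf, and each calf is 1 replicate of its diet. The 15 HI calves had a target gain of 1.2 kg per day and received 1.5 kg of milk replacer in 10 litres per day with concentrates ad libitum. The 15 MOD calves had a target gain of 0.5 kg per day and received 0.5 kg of milk replacer in 4 litres per day with 1 kg of concentrates. These amounts are those of the labels. The paper describes milk replacer that was reduced in stages before weaning, and MOD concentrates that rose before weaning to at most 1 kg per day. The calf phase of 8 weeks was followed by a post-weaning phase of 11 weeks, in which HI calves kept ad libitum concentrates, MOD calves kept 1 kg, and both had hay to appetite. The diets ran from 2 to 21 weeks of age according to the labels, and all calves shared breed cross, sex and age at sampling.

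Cells that detect viral nucleic acid secrete interferons, which bind receptors on the same and neighbouring cells and, through JAK kinases and STAT and IRF transcription factors, switch on a common set of antiviral genes. ISG15 is a ubiquitin-like protein that is attached to other proteins, and MX1 and MX2 are dynamin-like GTPases that act against viral replication. RSAD2 (viperin) makes a nucleotide that stops viral RNA synthesis, and the OAS enzymes sense double-stranded RNA and make the messenger that activates RNase L.

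Between 11847883 and 19383275 reads per calf fell on genes. Values are counts per 1000000 reads (CPM), in which the reads of a gene are divided by the library size after it was scaled by the trimmed mean of M-values (TMM). On the first principal component of all genes kept, which held 36.7% of the variance, 3 calves stood apart from the others: HI 2120 at 167, MOD 975 at 88.8 and MOD 911 at 49.5, with the next calf at 9.55. HI 2120 also had the lowest scaling factor, 0.67, in a range up to 1.27. The diet comparison and the correlations are given with and without the 3 calves that stood apart, whereas most ranges of values include them. The labelled tissue was not checked against marker genes, and leukocyte content was not analysed here, because no table used here pairs the Ensembl identifiers of markers with symbols. In bulk tissue a change in the number of cells of a type cannot be told apart from a change in RNA per cell. In the RefSeq annotation of assembly ARS-UCD2.0, MX2 and MX1 are neighbours, as are OAS2, OAS1Y and OAS1X, and OAS2 and OAS1Y overlap. The reads were mapped to another build, UMD3.1, on which this overlap was not checked. Reads in a shared stretch of OAS2 and OAS1Y, or in sequence alike between the OAS1 copies, may be counted with less certainty.

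ISG15 spanned the widest range of the 7 genes relative to its own level, 378-fold, a width that rested on HI 2120. Without HI 2120 its range was that of the MOD calves, 88.7-fold. MX2 then had the wider range, 285-fold, but its lowest value, in MOD 911, rested on 2 reads. Without MOD 911 the range of MX2 was that of the HI calves, 53.7-fold with HI 2120 kept, narrower than the 88.7-fold of ISG15. The lowest value of ISG15 was 1.04 in MOD 1392, its median 8.23 and its highest 393 in HI 2120, with MOD 975 next at 92.3. On the log2 scale its standard deviation across the 30 calves was larger than that of 99.6% of the genes kept. In HI calves it ran from 2.66 through a median of 8.19 to 393, and in MOD calves from 1.04 through 8.27 to 92.3. The medians of the diets were nearly equal and the groups overlapped, with HI 2120 alone above every MOD calf. Without HI 2120 the highest HI value was 68.7, in HI 3148, and the log2 standard deviation in HI calves fell from 1.90 to 1.36.

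The GTPases MX1 and MX2 shared HI 1388 and HI 3148 among their highest calves but differed in HI 2120. MX1 ran from 21.8 through a median of 37.6 to 454 in HI calves, and from 23.9 through 43.7 to 234 in MOD calves. MX2 ran from 0.92 through 2.21 to 49.6 in HI calves, and from 0.17 through 2.40 to 11.4 in MOD calves. MX1 was highest in HI 2120, HI 3148 (332) and HI 1388 (319), all above every MOD calf. MX2 was highest in HI 1388 (49.6) and HI 3148 (23.0), whereas HI 2120, the highest calf for MX1, was the lowest HI calf for MX2. The lowest MX2 value, in MOD 911, rested on 2 reads, and that in HI 2120 on 12 reads.

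RSAD2 had the narrowest spread of the 7 genes, although its log2 standard deviation still exceeded that of 85.7% of the genes kept. It ran from 11.6 through a median of 20.3 to 97.5 in HI calves and from 13.6 through 24.4 to 61.4 in MOD calves. Only HI 3148 and HI 1388 (91.8) lay above every MOD calf.

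Among the synthetases, OAS1Y followed ISG15 and MX1. It ran from 10.4 through a median of 22.9 to 289 in HI calves and from 7.38 through 22.1 to 222 in MOD calves, with the highest values in HI 2120 and MOD 975. OAS2 ran from 0.95 through 2.19 to 20.6 in HI calves and from 0.70 through 1.97 to 9.77 in MOD calves. OAS1X ran from 5.59 through 14.2 to 42.7 in HI calves and from 4.87 through 10.5 to 51.9 in MOD calves. OAS1X was highest in MOD 2551 and HI 1388, and neither HI 2120 (18.7) nor MOD 975 (12.9) was among its highest calves. For all 7 genes the ranges of the diets overlapped. Gene lengths were not used here, so these values compare calves within a gene and not the genes with each other.

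**Figure D1:**
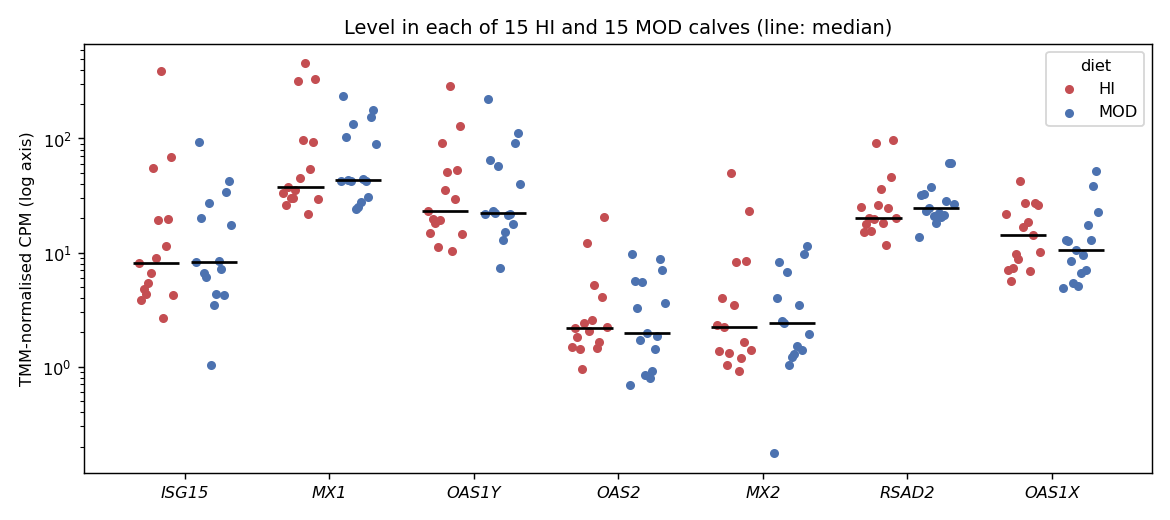
Values of each gene in TMM-normalised CPM (log axis) in 15 HI (red) and 15 MOD (blue) calves, 1 point per calf, with a line at the median of each diet. The diets overlap for every gene, and single calves such as HI 2120 for ISG15 (393) and MOD 911 for MX2 (0.17) lie far from the median; levels are not comparable between genes.

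The comparison of the diets asks whether an enhanced plane of nutrition altered the level of these genes. None of the 7 genes was differentially expressed between HI and MOD calves. The test was limma on log2(value + 0.5), with Benjamini-Hochberg adjustment over all 12738 genes. Of the 7 genes, 0 passed an adjusted p under 0.05 with a fold change above 1.5, beside 6.72% of all genes. At an unadjusted p under 0.05, again 0 of 7 passed, beside 27.5% of all genes. With so few genes, which also vary together, a count of 0 cannot set them apart from these shares. The median log2 fold change (HI minus MOD) was 0.07 over the 7 genes and -0.02 over all genes.

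The largest difference was that of MX2, with a log2 fold change of 0.28 (SE 0.47) and a 95% interval from -0.68 to 1.24 (limma adjusted p = 0.76, 15 calves per diet). OAS1X followed at 0.25 (SE 0.32, interval -0.41 to 0.91, limma adjusted p = 0.67). ISG15 was at 0.19 (SE 0.60, interval -1.02 to 1.41, limma adjusted p = 0.88), the widest interval of the 7. The remaining log2 fold changes were 0.07 for OAS2 (interval -0.69 to 0.83), 0.02 for MX1 (interval -0.89 to 0.92), -0.01 for OAS1Y (interval -0.95 to 0.93) and -0.06 for RSAD2 (interval -0.59 to 0.48). The interval was narrowest for RSAD2, where its lower limit lay just beyond a 1.5-fold fall in HI calves, and for the other 6 genes it reached beyond a 1.5-fold rise. A 1.5-fold difference was therefore not bounded for any of the 7 genes. Adjusted p-values of these 4 genes in limma lay between 0.92 and 0.99.

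Tests on the recovered reads called 0 of the 7 genes as well, beside 7.91% of all genes in the edgeR exact test, 7.27% in the edgeR quasi-likelihood test, 8.24% in DESeq2 and 9.74% in limma-voom with sample quality weights. None of the 7 had an unadjusted p under 0.05 in these tests. The size of the ISG15 difference depended on HI 2120: the exact test gave a log2 fold change of 1.12 with this calf (adjusted p = 0.22) and -0.24 without it (adjusted p = 0.79), limma gave -0.16 without it, and DESeq2, which replaced the ISG15 count of HI 2120, gave -0.28. Leaving out HI 2120 in the exact test also moved OAS1Y from 0.11 to -0.43 (adjusted p = 0.49) and MX1 from 0.43 to 0.06. For MX2 the exact test gave 0.95 with all calves and 0.19 without HI 1388, and limma gave 0.02 without HI 1388. In limma without HI 2120, MOD 975 and MOD 911, the 7 log2 fold changes lay between -0.08 and 0.25, with 0 called and a lowest adjusted p of 0.75. Without HI 2120, MX2 passed an unadjusted p under 0.05 in the exact test, at a log2 fold change of 1.04 (adjusted p = 0.14).

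**Figure D2:**
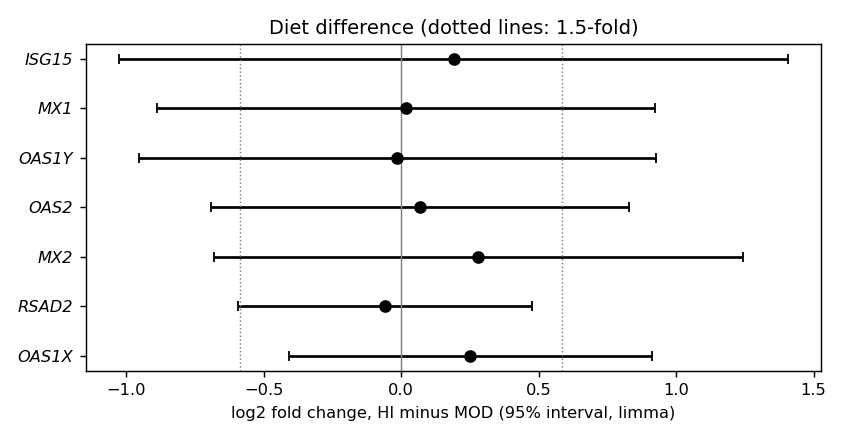
Log2 fold change of each gene, HI minus MOD, from limma on log2(value + 0.5), with 95% intervals (15 calves per diet); dotted lines mark a 1.5-fold change. All 7 intervals include 0, and the estimates lie between -0.06 for RSAD2 and 0.28 for MX2.

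The 7 genes rose and fell together from calf to calf. Over the 30 calves Pearson's r of log2(value + 0.5) was between 0.53 and 0.98 for the 21 pairs, with a median of 0.73, and Spearman's rho was between 0.62 and 0.98. All 21 pairs passed a two-sided permutation test (100000 resamples, Benjamini-Hochberg over the pairs), with adjusted p no higher than 0.0028 for r and 0.00054 for rho. The smallest raw p that the permutations can give is 1e-05. Leaving out, for each pair, the 2 calves farthest from the median of the first gene kept all 21 past the threshold, with r between 0.54 and 0.98. The pairs share libraries, so they are not independent of each other.

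The tightest pairs were those among ISG15, MX1 and OAS1Y, a trio noticed after the values were seen. ISG15 and OAS1Y had an r of 0.98, ISG15 and MX1 0.97, and MX1 and OAS1Y 0.96. MX2 and RSAD2 formed another close pair at 0.91. The loosest pairs joined ISG15 to MX2 (0.53), ISG15 to RSAD2 (0.59) and OAS1Y to MX2 (0.61). Without HI 2120, MOD 975 and MOD 911 these became 0.88, 0.89 and 0.90, and the median over the 21 pairs rose from 0.73 to 0.89. Without these 3 calves the loosest pairs were OAS2 with OAS1X (0.68) and MX2 with OAS1X (0.74). MX2 with RSAD2 stayed at 0.91, but MX1 then had a higher r with both, 0.94 with RSAD2 and 0.93 with MX2.

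**Figure D3:**
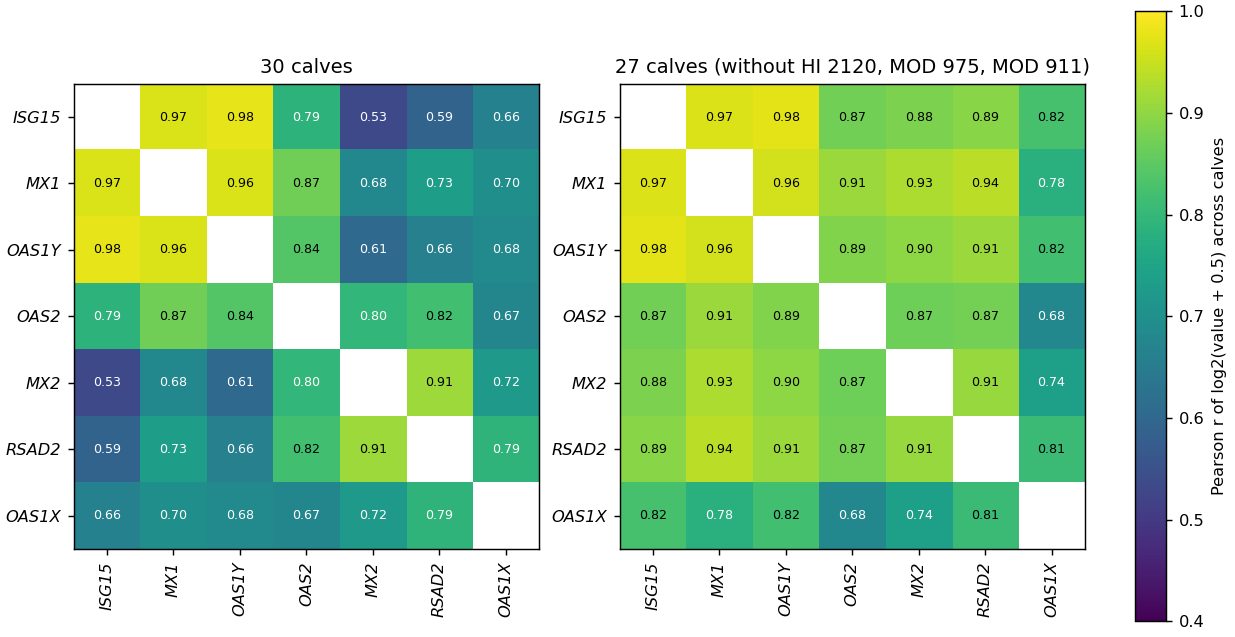
Pearson's r of log2(value + 0.5) for each pair of genes (colour scale from 0.4 to 1), over 30 calves on the left and over 27 calves on the right, without HI 2120, MOD 975 and MOD 911. The block of ISG15, MX1 and OAS1Y is near 0.97 in both, and the pairs of ISG15 with MX2 and RSAD2 rise from 0.53 and 0.59 to 0.88 and 0.89.

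The relations were also present within each diet. In the 15 MOD calves r was between 0.64 and 0.99 and all 21 pairs passed the permutation test, with adjusted p no higher than 0.0098. In the 15 HI calves r was between 0.42 and 0.98 and 20 of 21 pairs passed. The exception was ISG15 with MX2 (r = 0.42, permutation adjusted p = 0.11), which had an r of 0.89 once HI 2120 and HI 3148 were left out. By rho 18 of 21 pairs passed in HI calves. Without the 2 farthest calves of each pair, 15 of 21 passed in HI calves and 20 of 21 in MOD calves, and in HI calves MX2 with OAS2 fell from an r of 0.78 to 0.26 and MX2 with OAS1Y from 0.52 to 0.22 without HI 1388 and HI 3148. These falls were smaller with HI 2120 left out. MX2 with OAS2 then fell from an r of 0.88 to 0.65 without HI 1388 and HI 3148 (permutation adjusted p = 0.024). MX2 with OAS1Y then fell from 0.92 to 0.87 (permutation adjusted p = 0.00056). Without HI 2120 alone, all 21 pairs of HI calves passed (r between 0.66 and 0.98), and 19 of 21 passed when the 2 farthest calves of each pair were left out too (lowest r 0.47). Without MOD 975 and MOD 911 all 21 pairs of MOD calves passed (r between 0.71 and 0.98), and 16 of 21 passed when the 2 farthest were left out too (lowest r 0.36, permutation adjusted p = 0.27).

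The 7 genes lay near the top of the whole table in likeness to each other. Of the 12737 other genes kept, OAS1Y had the highest r with ISG15 and ISG15 the highest with both OAS1Y and MX1. All 6 other members were among the 100 genes most like each of MX1, MX2, RSAD2, OAS2, OAS1X and OAS1Y, and 4 of 6 were for ISG15, whose least like member, MX2, was at rank 330. Without the 3 calves that stood apart, every member was within the 49 genes most like each other member. Over the 30 calves only 26 of the 12737 genes (0.204%) had an r above 0.8 with ISG15, and only 1 did with OAS1X. Without the 3 calves these counts were 30 for ISG15 and 6 for OAS1X. Among genes outside the 7, ENSBTAG00000020536 was most like the mean of the members (r = 0.97 over 30 calves) and ENSBTAG00000022489 was most like it without the 3 calves (r = 0.98). The deposited table does not pair these identifiers with names.

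In 10 of the 30 calves several of the genes were raised together, which is given as a description. A gene was counted as raised in a calf when its value was more than 2-fold above the median of the 30 calves, and a rise as shared when at least 4 genes were raised. The 10 calves were divided evenly between the diets, with HI 1388, 1707, 2120, 2570 and 3148 and MOD 975, 981, 1082, 2537 and 2551. In HI 1388, HI 3148, MOD 2537 and MOD 2551 all 7 genes were raised. In HI 1388 the rise over the median was 21.8-fold for MX2, 7.40-fold for MX1, 6.76-fold for ISG15 and 3.85-fold for RSAD2. In HI 3148 it was 10.1-fold for MX2, 9.65-fold for OAS2 and 8.34-fold for ISG15. MOD 2551 and MOD 2537 had rises of 2.57-fold to 5.13-fold and of 2.56-fold to 4.23-fold.

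In HI 2570, HI 1707, MOD 1082 and MOD 981, 5 of the 7 genes were raised, with ISG15, MX1, MX2 and OAS1Y raised in each. The fifth gene was OAS1X in the HI pair and OAS2 in the MOD pair, and RSAD2 was below 2-fold in all 4 (1.36-fold to 1.92-fold). MOD 3622 had 2 raised genes, ISG15 (2.11-fold) and MX1 (2.08-fold), and in the other 19 calves no gene was raised. The mean of the 7 genes, as log2 distance from the median, fell from 2.53 in HI 1388 to -1.14 in MOD 1392. The largest gap between neighbouring calves was 0.60, between MOD 975 and HI 2570. This mean was 0.40 ± 1.15 (SD, n = 15) in HI calves and 0.29 ± 1.02 (SD, n = 15) in MOD calves.

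**Figure D4:**
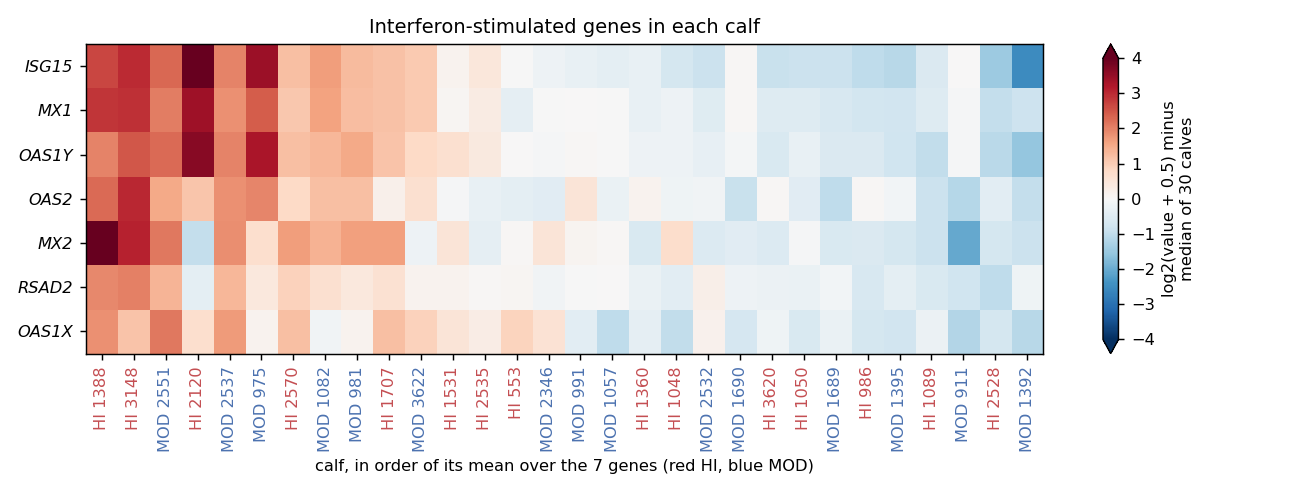
Log2(value + 0.5) of each gene in each calf minus the median of the 30 calves (colour scale from -4 to 4), with calves in order of their mean over the 7 genes, HI in red and MOD in blue lettering. Calves of both diets lie at the left, where most genes are high, and HI 2120 and MOD 975 are high for ISG15, MX1 and OAS1Y but not for MX2, RSAD2 and OAS1X.

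HI 2120 and MOD 975 had a rise of another composition. In HI 2120, ISG15 was 47.8-fold above the median, OAS1Y 12.8-fold, MX1 10.5-fold and OAS2 2.41-fold, while OAS1X was at 1.61, RSAD2 at 0.75 and MX2 at 0.41 of the median. In MOD 975 the same 4 genes were raised, ISG15 11.2-fold, OAS1Y 9.87-fold, MX1 5.42-fold and OAS2 4.57-fold, while MX2 was at 1.74, RSAD2 at 1.34 and OAS1X at 1.11 of the median. MOD 911, the other calf that stood apart, had no raised gene, with ISG15, MX1 and OAS1Y near the median, while MX2 was at 0.08, OAS2 at 0.33, OAS1X at 0.42 and RSAD2 at 0.57 of it.

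Ratios of genes within a calf, which do not depend on the scaling of the library apart from the pseudocount, showed the same. The log2 difference of ISG15 and MX2 was 8.11 in HI 2120 and 4.38 in MOD 975, against 0 to 2.88 in the 27 calves other than these and MOD 911. ISG15 also stood higher against MX1, at -0.21 and -1.33 against -3.99 to -1.97 in the 27 calves. The difference of MX1 and RSAD2 was 4.62 and 2.85, against 0.11 to 1.81. OAS1Y exceeded OAS1X by 3.92 and 4.05, against 0.06 to 2.39 in the 27 calves. MOD 911 also lay above the 27 calves for ISG15, MX1 and OAS1Y against MX2 and against OAS2. Its difference of ISG15 and MX2 was 3.70, that of MX1 and MX2 was 5.98 against 2.67 to 5.22, and that of OAS1Y and MX2 was 5.05 against 0.86 to 4.06, with MX2 resting on 2 reads. Its difference of ISG15 and OAS2 was 2.87, against 0.19 to 2.69, with OAS2 resting on 8 reads. The part that the features setting these calves apart over all genes play in these ratios was not tested.

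**Figure D5:**
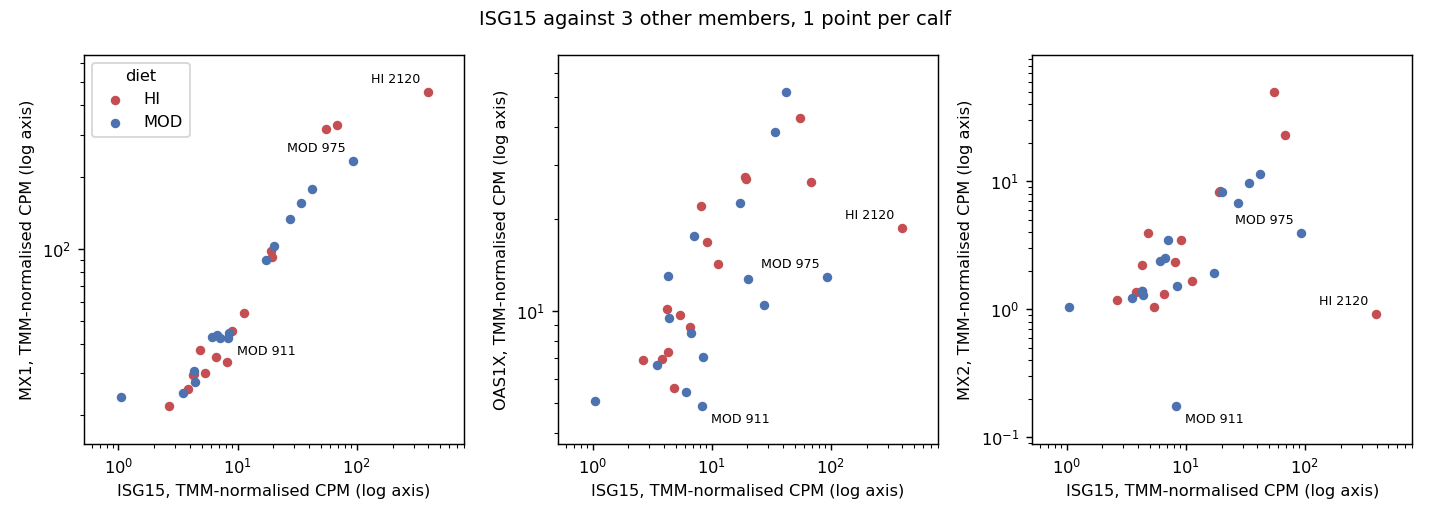
MX1, OAS1X and MX2 against ISG15 in TMM-normalised CPM (log axes), 1 point per calf, HI in red and MOD in blue, with the 3 calves that stood apart over all genes named. HI 2120 and MOD 975 have the highest ISG15 values, 393 and 92.3, with high MX1 (454 and 234), while their MX2 values are 0.92 and 3.97.

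The number of calves with a shared rise was 11 at a 1.5-fold limit, which added MOD 3622, and 5 at a 3-fold limit (HI 1388, HI 3148, MOD 975, MOD 2537 and MOD 2551). It was 10 against the median of the calf's own diet and 10 when at least 3 genes sufficed. On library size alone, without the scaling factors, it was 9, and HI 2120 was no longer among them.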

How the data were processed

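Omental adipose RNA of 15 HI and 15 MOD calves was analysed. The authors removed adapters and low-quality reads (Cutadapt), mapped to bovine build UMD3.1 and counted reads per gene with STAR; the strand column was not given in the sources used here. The deposited table holds a normalised signal: the reads of a gene over the TMM-scaled library size, per 1000000. Whole reads were recovered from the smallest steps of each library (100% of values above 0 within 0.01 of a read; tested on simulated data).

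Genes exceeding 1 in 15 or more calves were log2-transformed after adding 0.5, fitted with a variance trend in limma 3.58.1 under R 4.3.3, and called at Benjamini-Hochberg adjusted p under 0.05 and fold change above 1.5. edgeR 4.0.16 (exact and quasi-likelihood tests), DESeq2 1.42.0 and limma-voom on recovered reads, other pseudocounts (0.1 and 1), filters, thresholds and scaling, and leaving out calves were alternatives. The exact test without HI 2120 or HI 1388, and within-diet pairs without the calves that stood apart, were chosen after seeing the data. Blocks of age, bodyweight and sire were not given per calf. Depth was 11847883 to 19383275 reads per calf, which leaves MX2 and OAS2 with the least precise values.

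Every member was named, with the non-member most like their mean. The members and lists were chosen with earlier results of these data known. Of 24596 identifiers, 0 matched a symbol in the table used, so the planned pathway and marker lists were not analysed, and member names are those given with their identifiers. Sequences were not used here.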

Additional observations from a re-analysis of the deposited data

How the results depend on the processing

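Under all 12 alternatives to the limma test that were planned, and with each of the 30 calves left out, 0 of 7 genes were called; the lowest adjusted p over all settings was 0.14. The sign of a log2 fold change near 0 depended on the setting, and the cause was not tested unless named. ISG15 was at -0.28 in DESeq2 and -0.24 in the exact test without HI 2120. MX1 was at -0.044 in limma-voom, -0.17 on library size alone and -0.080 without the 3 calves that stood apart. RSAD2 was at 0.13 in the exact test, the quasi-likelihood test and DESeq2, and 0.17 in the exact test without HI 2120. OAS2 was at -0.082 on library size alone and -0.0049 in the exact test without HI 1388, where OAS1X was at -0.026. OAS1Y was at 0.11 in the exact and quasi-likelihood tests, 0.15 in DESeq2, 0.022 in limma-voom and 0.038 in the exact test without HI 1388. Library size alone moved the median of all genes from -0.02 to -0.19, the median of the 7 genes from 0.07 to -0.08, and the calls over all genes from 556 up and 300 down to 351 up and 779 down.

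With each calf left out, the log2 fold change ranged from -0.16 to 0.41 for ISG15, -0.19 to 0.16 for MX1, 0.02 to 0.42 for MX2, -0.19 to 0.025 for RSAD2, -0.12 to 0.19 for OAS2, 0.14 to 0.40 for OAS1X and -0.24 to 0.18 for OAS1Y. Over all genes, 1790 were called without the fold limit and 504 at adjusted p under 0.01, against 856. All 21 pairs kept an adjusted permutation p under 0.05 by rank, with other pseudocounts, on library size alone, as deviations from the diet means and with any calf left out. With each calf left out the lowest r was between 0.48 and 0.67. A shared rise was seen in 5 calves at 3-fold and in 4 when all 7 genes had to be raised.

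The pathway lists were not run, as they need gene names. No paired analysis was possible because the blocks are not given per calf.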
